A study of Mus musculus with 8 samples.

Results

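The tubulin genes and stathmin were examined in 2 subsets of mouse induced regulatory T cells (iTreg). The 10 genes, of 23361 gene symbols with a value, were the alpha-tubulin genes Tuba1a, Tuba1b, Tuba1c and Tuba4a, the beta-tubulin genes Tubb5, Tubb4b, Tubb2a and Tubb6, the gamma-tubulin gene Tubg1 and the stathmin gene Stmn1. They were chosen with earlier results of these data known, and their values were taken by symbol. All 10 passed the filter used for testing, a mean of at least 1 FPKM. FPKM are fragments scaled to the length of a gene's exons and to the mapped fragments of its library. iTreg were derived from naive splenic CD4+ T cells of B6 mice (male in the study's methods) carrying a red fluorescent reporter of Foxp3, the defining transcription factor of regulatory T cells, and labelled WT. Both groups were activated with anti-CD3/CD28 beads in 50 U/ml IL-2 and 2 ng/ml TGF-β for 3 days, although another label gives Day 5. They were sorted as viable CD4+ Foxp3-RFP+ cells and then on Nrp-1, a co-receptor on the cell surface. The Nrp-1+ subset and the Nrp-1- subset had 4 libraries each, labelled as biological replicates. No source says whether they came from separate cultures or mice, so the p-values measure the spread between these libraries, which may be technical.

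Microtubules are hollow polymers of alpha- and beta-tubulin dimers, and gamma-tubulin forms the ring from which they grow. Stathmin binds free tubulin dimers and promotes microtubule shortening. In T cells, microtubules build the mitotic spindle of dividing cells and carry the centrosome and vesicles to the contact with an antigen-presenting cell.

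In the library check, Nrp1 transcripts lay between 20.4 and 22.0 FPKM in the Nrp-1+ libraries and between 4.70 and 5.31 FPKM in the Nrp-1- libraries, as labelled. The summed FPKM of Cd3e, Cd4, Foxp3 and Il2ra lay between 909 and 931 in the Nrp-1+ libraries and between 888 and 905 in the Nrp-1- libraries, so both subsets carried the markers of the labelled cell type. Il2ra and Foxp3 were called higher in Nrp-1+ iTreg by limma (log2 fold changes 0.22 and 0.09), Foxp3 with an adjusted p of 0.0245 that rose to between 0.0525 and 0.0623 without Nrp-1+ replicate 2 or Nrp-1- replicate 2 or 3. The Foxp3 call was also lost with quantile normalization (adjusted p = 0.0992 by limma) and with GC and length correction (0.240, and 0.322 with the replicate block). Read from genes under 0.3 FPKM, the depth relative to the first Nrp-1+ iTreg library lay between 0.994 and 1.22 for the Nrp-1+ subset and between 0.810 and 1.24 for the Nrp-1- subset. Absolute depth is unknown, and no counting interval is given.

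Of the 10 genes, 9 were higher in Nrp-1+ iTreg, 0 were lower, and Tubb2a passed no threshold, by limma on log2(FPKM + 1) with Benjamini-Hochberg adjusted p under 0.05. Across all 10467 genes tested, 20.9% were called higher and 20.0% lower. The ranges of the subsets did not overlap for these 9 genes, against 20.2% of all genes tested that were higher without overlap. The median log2 fold change of the 10 genes was 0.66, against -0.02 for all genes tested. The genes were chosen with earlier results of these data known, so these contrasts are descriptive. The rise was between 1.19-fold for Tuba4a and 1.87-fold for Tuba1b in mean FPKM. A log2 fold change on log2(FPKM + 1) understates the change of low genes such as Tubb6. In bulk RNA, more cells that transcribe a gene and more RNA of it per cell cannot be told apart.

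**Figure D1:**
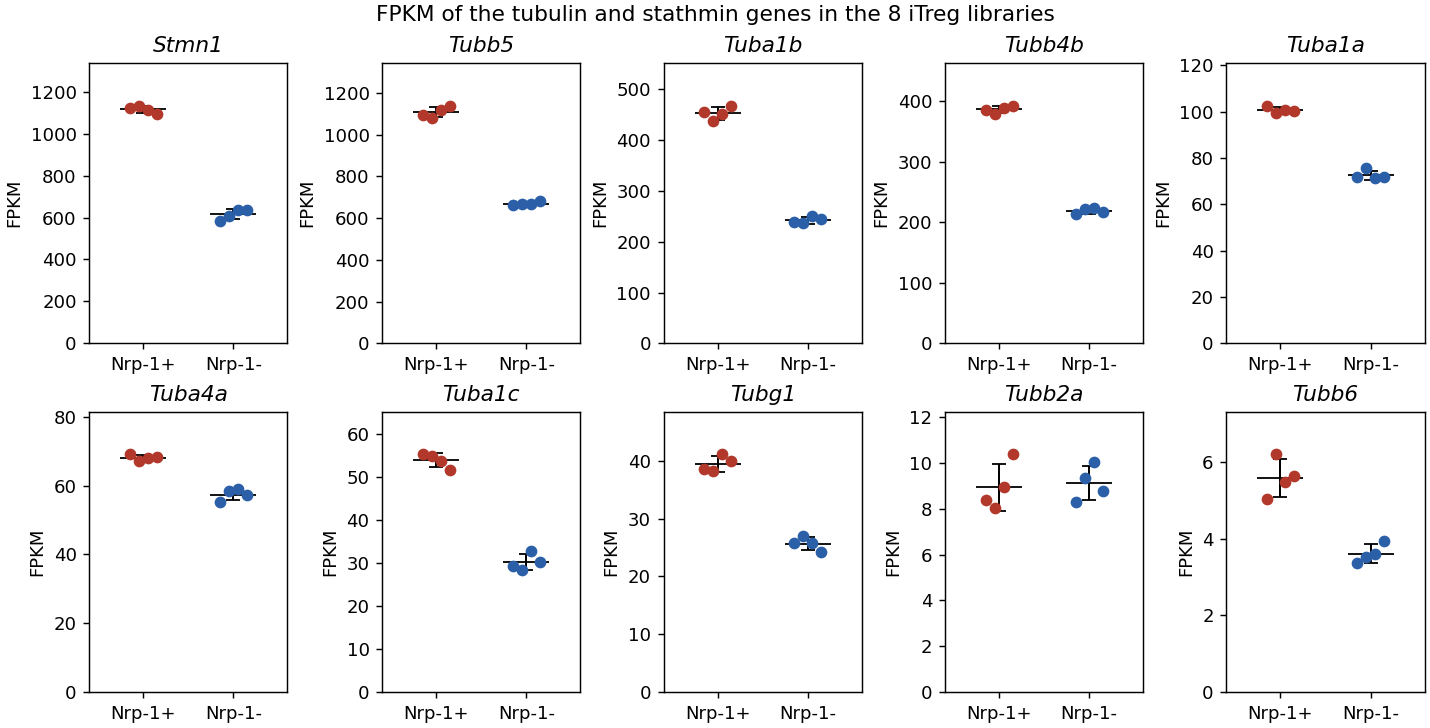
FPKM of each of the 10 genes (y axis, from 0, scaled for each gene) in the 4 Nrp-1+ iTreg libraries (red) and the 4 Nrp-1- iTreg libraries (blue), with one point per library, the mean as a long line and the SD as the error bar. The points of the subsets are apart in every gene except Tubb2a, where both span 8 to 10 FPKM.

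Tuba1b, the most abundant alpha-tubulin transcript, was measured at 456, 437, 451 and 467 FPKM in Nrp-1+ iTreg, against 239, 236, 251 and 244 FPKM in Nrp-1- iTreg. The lowest Nrp-1+ library stood well above the highest Nrp-1- library. The means were 453 ± 12.6 FPKM and 242 ± 6.79 FPKM (SD, n = 4 each), and the log2 fold change of 0.90 (SE 0.03, 95% interval 0.83 to 0.97, adjusted p = 2.76e-07 by limma) was the largest of the 10 genes.

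Tuba1c, expressed at a much lower level, rose by nearly as much. Its values were 55.2, 54.9, 53.7 and 51.6 FPKM in Nrp-1+ iTreg and 29.2, 28.3, 32.8 and 30.3 FPKM in Nrp-1- iTreg. The subsets were clearly apart, with a log2 fold change of 0.82 (SE 0.05, adjusted p = 3.71e-06 by limma).

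Tuba1a, the isotype best known from developing neurons, rose less. It was at 102, 99.5, 101 and 100.2 FPKM in Nrp-1+ iTreg and at 71.9, 75.5, 71.2 and 71.7 FPKM in Nrp-1- iTreg. All 4 Nrp-1+ values lay within 3 FPKM of each other, and replicate 2 was the highest in Nrp-1- iTreg. The log2 fold change was 0.47 (SE 0.02, adjusted p = 2.23e-06 by limma).

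Tuba4a, the alpha-tubulin whose encoded protein ends without the usual C-terminal tyrosine, changed least among the genes that rose. Its values were 69.0, 67.1, 68.0 and 68.2 FPKM in Nrp-1+ iTreg and 55.1, 58.4, 58.9 and 57.1 FPKM in Nrp-1- iTreg. Although small, the difference was larger than the spread within either subset, with a log2 fold change of 0.24 (SE 0.02, 95% interval 0.19 to 0.30, adjusted p = 0.000130 by limma). The intervals of Tuba4a and Tuba1a lay below those of Tuba1b and Tuba1c without touching them.

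The genes Tuba1b (chr15:98931425-98934565, minus strand), Tuba1a (chr15:98949837-98953703, minus strand) and Tuba1c (chr15:99029891-99038110, plus strand) lie together on chromosome 15 in GENCODE M21 (GRCm38), whereas Tuba4a is at chr1:75214228-75219865 on the minus strand. Of all 50-base stretches in the longest transcript, other genes shared 73.8% for Tuba1b, 72.9% for Tuba1a, 61.0% for Tuba1c and 1.11% for Tuba4a. How fragments from the shared stretches were assigned is not given in the sources used here, so the division of FPKM among the Tuba1 genes is uncertain. The sum of Tuba1a, Tuba1b and Tuba1c does not depend on how fragments were divided among these 3 genes except through their lengths. It can still depend on fragments shared with further genes. Gm14150, Gm17383 and Gm3226, which have no FPKM here, share 48.1%, 47.7% and 47.3% of the stretches of Tuba1b. The sum was 607 ± 12.1 FPKM in Nrp-1+ iTreg, against 345 ± 7.36 FPKM in Nrp-1- iTreg, a ratio of 1.76.

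Tubb5 encodes the main beta-tubulin of lymphocytes and other dividing cells. It was at 1094, 1081, 1116 and 1138 FPKM in Nrp-1+ iTreg, against 662, 666, 666 and 683 FPKM in Nrp-1- iTreg. The Nrp-1- values were the most alike among the 10 genes in that subset, with a coefficient of variation of 1.41%. The means were 1108 ± 25.0 FPKM and 669 ± 9.41 FPKM (SD, n = 4 each), and the log2 fold change was 0.73 (SE 0.02, 95% interval 0.67 to 0.78, adjusted p = 3.10e-07 by limma).

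Tubb4b, a broadly expressed beta-tubulin that is also used in cilia, was at 386, 379, 389 and 392 FPKM in Nrp-1+ iTreg, against 213, 222, 223 and 216 FPKM in Nrp-1- iTreg. Every Nrp-1+ value exceeded every Nrp-1- value, and the log2 fold change was 0.82 (SE 0.02, 95% interval 0.77 to 0.87, adjusted p = 1.96e-07 by limma). Its interval and that of Tubb5 overlapped slightly.

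Tubb6, a minor beta-tubulin, was the lowest of the genes in FPKM. Its values were 5.03, 6.20, 5.48 and 5.63 FPKM in Nrp-1+ iTreg and 3.38, 3.53, 3.59 and 3.95 FPKM in Nrp-1- iTreg. The spread was wider than in the abundant isotypes, but the subsets did not overlap, and the log2 fold change was 0.51 (SE 0.06, 95% interval 0.37 to 0.66, adjusted p = 0.000373 by limma).

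Tubb2a, a beta-tubulin prominent in neurons, was the exception. It was at 8.37, 8.06, 8.94 and 10.4 FPKM in Nrp-1+ iTreg and at 8.32, 9.35, 10.0 and 8.79 FPKM in Nrp-1- iTreg. The values of the subsets were interleaved. The log2 fold change was -0.03 (SE 0.08, adjusted p = 0.795 by limma), and its 95% interval of -0.21 to 0.15 leaves room for a small difference in either direction but lies below the interval of each of the 9 other genes. The paralog Tubb2b shares 45.6% of the 50-base stretches of Tubb2a. Tubb2b rose from 8.05 ± 0.461 to 9.60 ± 0.311 FPKM (log2 fold change 0.23, adjusted p = 0.00339 by limma, and 0.0607 with GC and length correction and the replicate block), and the sum of both genes was 18.5 ± 1.28 FPKM in Nrp-1+ iTreg, against 17.2 ± 1.16 FPKM in Nrp-1- iTreg, with overlapping ranges.

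In GENCODE M21, Tubb5 is at chr17:35833921-35838306, Tubb4b at chr2:25222160-25224702 and Tubb2a at chr13:34074274-34078007, all on the minus strand. Other genes shared 0.115% of the 50-base stretches of Tubb5, 50.9% of those of Tubb4b (mostly the pseudogenes Tubb4b-ps1 and Tubb4b-ps2) and 0.0% of those of Tubb6. The 2 abundant beta-tubulin genes that rose and Tubb2a, which was not called, differ in fold change. The 150 bases before their RefSeq transcription starts (GRCm38.p6) are shown 5′ to 3′ on the gene's strand. They lie at chr17:35838302-35838451, chr2:25224703-25224852 and chr13:34078009-34078158, all on the minus strand. Capitals mark CCAAT, the core of the box bound by the factor NF-Y, and TATAAA, the core of the TATA box.
Tubb5: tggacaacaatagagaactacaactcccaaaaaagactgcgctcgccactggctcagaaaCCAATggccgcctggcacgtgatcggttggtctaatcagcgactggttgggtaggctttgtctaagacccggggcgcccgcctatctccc
Tubb4b: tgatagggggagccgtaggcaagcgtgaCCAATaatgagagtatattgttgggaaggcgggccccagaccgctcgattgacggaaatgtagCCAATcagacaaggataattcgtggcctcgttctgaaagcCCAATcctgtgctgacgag
Tubb2a: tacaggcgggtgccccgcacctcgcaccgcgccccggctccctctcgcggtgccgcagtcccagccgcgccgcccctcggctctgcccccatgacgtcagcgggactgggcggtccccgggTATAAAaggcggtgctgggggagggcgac
RefSeq promoters were at hand for 7 of the 10 genes, those other than Tubb6, Tubg1 and Stmn1. Both strands of the 300 bases from 250 before to 50 after the start were searched. CCAAT was found in 4 of the 7 promoters, against 37.4% of 32851 mouse promoters. Tubb4b held 5 copies and Tubb5 2, Tuba1a and Tuba1c held 1 each, and Tuba1b, Tuba4a and Tubb2a held none. Tuba1b, which changed most, and Tubb2a, which was not called, thus both lacked CCAAT in this window. TATAAA was in Tubb2a, from 29 to 24 bases before the start, and in Tubb4b after the start, against 13.6% of promoters. TTTGAA, the core of the cell cycle homology region, was found in Tubb4b only, against 17.9% of promoters. None of the 4 E2F words searched (TTTCCCGC, TTTCGCGC, TTTGCCGC and TTTGGCGC) was in any of the 7, against 2.26% of promoters. These matches describe letters in a window and do not show binding.

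**Figure D2:**
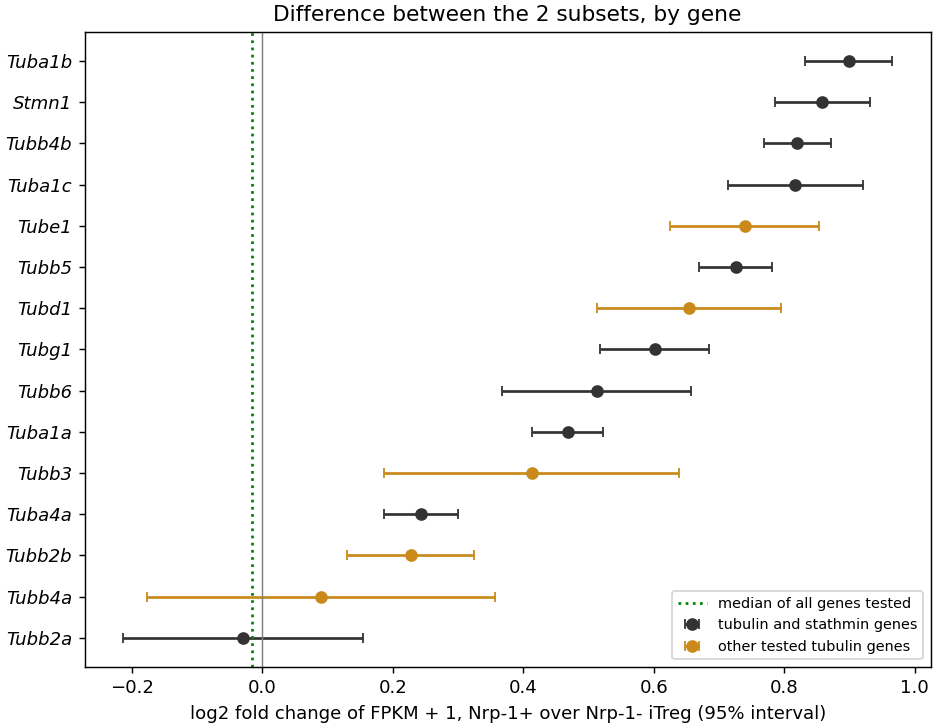
Log2 fold change of FPKM + 1, Nrp-1+ over Nrp-1- iTreg (x axis), with its 95% interval, for the 10 tubulin and stathmin genes (black) and the 5 other tubulin genes tested (orange), and the median of all genes tested as a dotted line. The intervals of Tubb2a and Tubb4a include 0, and those of the other genes lie above it.

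Tubg1, which encodes the gamma-tubulin of the nucleating ring, was at 38.6, 38.2, 41.1 and 40.0 FPKM in Nrp-1+ iTreg and at 25.7, 27.0, 25.8 and 24.3 FPKM in Nrp-1- iTreg. The subsets were well apart, and the log2 fold change was 0.60 (SE 0.04, 95% interval 0.52 to 0.69, adjusted p = 6.20e-06 by limma). Its locus is chr11:101119938-101126419 on the plus strand. The paralog Tubg2, which shares 13.9% of the stretches of Tubg1, was at 0.547 ± 0.268 FPKM in Nrp-1+ iTreg, against 0.651 ± 0.0378 FPKM in Nrp-1- iTreg, too low to be tested.

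Stmn1, at chr4:134468320-134473843 on the plus strand, encodes stathmin, whose activity is switched off by phosphorylation in mitosis. It was at 1122, 1132, 1114 and 1092 FPKM in Nrp-1+ iTreg, against 584, 607, 635 and 634 FPKM in Nrp-1- iTreg. Even the lowest Nrp-1+ value was far above the highest Nrp-1- value. The means were 1115 ± 17.2 FPKM and 615 ± 24.0 FPKM (SD, n = 4 each), and the log2 fold change was 0.86 (SE 0.03, 95% interval 0.79 to 0.93, adjusted p = 4.41e-07 by limma). The absolute difference, 500.2 FPKM, was the largest of the 10 genes, followed by 438 FPKM for Tubb5. Of the 50-base stretches of Stmn1, other genes shared 36.5%, mostly Gm11223 (34.7%), which has no FPKM here.

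By mean FPKM, Stmn1 and Tubb5 ranked 115 and 114 among the 22579 symbols that are not short RNA genes, and Tubb6 ranked 8086. From the highest to the lowest level in Nrp-1+ iTreg, the order was Stmn1, Tubb5, Tuba1b, Tubb4b, Tuba1a, Tuba4a, Tuba1c, Tubg1, Tubb2a and Tubb6. The ranges of Stmn1 and Tubb5 overlapped in Nrp-1+ iTreg, whereas in Nrp-1- iTreg every Tubb5 value (lowest 662 FPKM) was above every Stmn1 value (highest 635 FPKM). No other neighbours in the order overlapped in either subset. The coefficient of variation within a subset was between 1.14% and 11.5%, and both the highest in Nrp-1+ iTreg and the highest in Nrp-1- iTreg, 8.11%, were those of Tubb2a.

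Summed over 8 alpha-tubulin genes, the level was 676 ± 12.9 FPKM in Nrp-1+ iTreg, against 403 ± 8.34 FPKM in Nrp-1- iTreg, a ratio of 1.68. Summed over 8 beta-tubulin genes, it was 1522 ± 31.7 FPKM and 912 ± 11.3 FPKM, a ratio of 1.67. The beta to alpha ratio of summed FPKM was therefore 2.25 ± 0.0326 in Nrp-1+ iTreg and 2.26 ± 0.0378 in Nrp-1- iTreg, with ranges that overlapped. In percentage points, the shares within the alpha class differed more than those within the beta class. Tuba1b held between 66.3% and 67.9% of alpha-tubulin FPKM in Nrp-1+ iTreg and between 59.2% and 60.7% in Nrp-1- iTreg. The share of Tuba4a was between 9.92% and 10.2% in Nrp-1+ iTreg and between 13.9% and 14.7% in Nrp-1- iTreg, and that of Tuba1a between 14.6% and 15.1% against 17.2% and 18.9%. Tubb5 held 72.7 ± 0.131% of beta-tubulin FPKM in Nrp-1+ iTreg and 73.4 ± 0.550% in Nrp-1- iTreg, with Tubb4b between 25.1% and 25.6% against 23.4% and 24.4%. The minor beta-tubulins Tubb2a and Tubb2b held 0.586% and 0.630% on average in Nrp-1+ iTreg, against 1.00% and 0.883% in Nrp-1- iTreg. These shares are descriptive and were given no test, and those of the Tuba1 genes rest on an uncertain division of shared fragments.

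**Figure D3:**
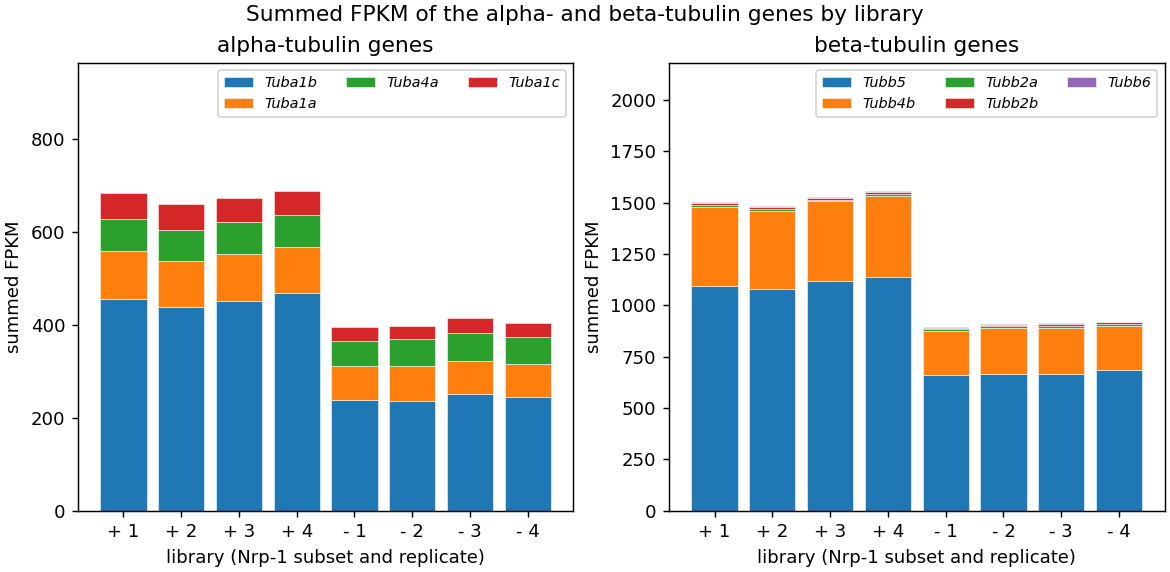
FPKM of alpha-tubulin genes (left) and beta-tubulin genes (right) stacked in each library (y axis, from 0; x axis, Nrp-1 subset and replicate), for isotypes high enough to be seen. The Nrp-1+ bars reach 658 to 688 FPKM for alpha- and 1489 to 1561 FPKM for beta-tubulin, against 395 to 414 FPKM and 897 to 924 FPKM in Nrp-1- iTreg, and Tuba1b and Tubb5 make up most of each bar.

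Of 11 other tubulin genes, 5 were tested, of which 4 were higher, 0 lower and Tubb4a not called. Epsilon-tubulin (Tube1) and delta-tubulin (Tubd1), centriole proteins of low abundance, rose most. Tube1 was at 7.63 ± 0.344 FPKM in Nrp-1+ iTreg, against 4.17 ± 0.288 FPKM in Nrp-1- iTreg (log2 fold change 0.74, adjusted p = 1.11e-05 by limma), and Tubd1 at 8.33 ± 0.274 FPKM and 4.94 ± 0.513 FPKM (log2 fold change 0.65, adjusted p = 7.86e-05 by limma). Tubb3, the neuronal beta-tubulin, was at 2.48 ± 0.385 FPKM and 1.61 ± 0.248 FPKM (log2 fold change 0.41, adjusted p = 0.0108 by limma). Tubb4a was at 1.90 ± 0.444 FPKM and 1.70 ± 0.147 FPKM, with overlapping values (adjusted p = 0.567 by limma).

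Genes of proteins that build and bundle spindle microtubules were nearly all higher. Of 16 tested, 15 were higher and 0 lower, with a median log2 fold change of 0.66, close to that of the tubulin and stathmin genes. Nusap1, which bundles spindle microtubules, was at 113.9 ± 6.02 FPKM in Nrp-1+ iTreg, against 58.5 ± 1.01 FPKM in Nrp-1- iTreg (log2 fold change 0.95). Prc1, the crosslinker of the midzone, was between 73.2 and 76.2 FPKM against 37.8 and 39.8 FPKM (0.92), and Tacc3, which stabilises spindle fibres, at 60.7 ± 1.88 FPKM and 32.9 ± 0.520 FPKM (0.86). Numa1, which gathers microtubules at the spindle poles, was at 57.2 ± 1.57 FPKM and 55.8 ± 1.71 FPKM and was not called (adjusted p = 0.394 by limma). The augmin subunits Haus2 (adjusted p = 0.0386) and Haus7 (adjusted p = 0.0192) were called by limma with small differences. Haus2 was lost without any 1 library other than Nrp-1- replicate 2 (adjusted p from 0.0549 to 0.0940), and Haus7 without Nrp-1+ replicate 3 or Nrp-1- replicate 3 (0.0523 and 0.0519). Both were also lost with the replicate block (0.0948 for Haus2 and 0.0520 for Haus7), with quantile normalization (0.119 and 0.0543), and with GC and length correction (0.146 and 0.0980, and 0.257 and 0.159 with the block), and Haus2 without a filter (0.0630).

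The partners of gamma-tubulin were more divided. Of 11 genes of the gamma-tubulin ring complex and its anchors, 5 were higher, 1 was lower and 5 were not called, with a median log2 fold change of 0.10. Nedd1, which targets the ring to centrosomes and spindles, was between 11.6 and 14.0 FPKM in Nrp-1+ iTreg against 8.70 and 9.43 FPKM in Nrp-1- iTreg (log2 fold change 0.48). The ring subunit Tubgcp2 had a log2 fold change of 0.38 and the ring activator Cdk5rap2 one of 0.36. Tubgcp3, Tubgcp4, Tubgcp5 and Tubgcp6, the other core subunits of the ring, were not called, although Tubgcp4 was called higher with the replicate block (adjusted p = 0.0439 by limma) and without Nrp-1+ replicate 3 (0.0186). Akap9, an anchor at the Golgi, was lower (5.04 ± 0.425 against 6.02 ± 0.550 FPKM, log2 fold change -0.22, adjusted p = 0.0399 by limma), a call that was lost without any 1 library other than Nrp-1+ replicate 1 and Nrp-1- replicate 3 (adjusted p between 0.0514 and 0.0940), without a filter (0.0706), and with GC and length correction and the replicate block (0.0515).

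Of 15 genes of tubulin folding cofactors, prefoldin subunits and factors that control tubulin mRNA decay, 1 was higher, 4 were lower and 10 were not called, with a median log2 fold change of -0.03. Over all genes tested, 6185 of 10467 were not called and 20.0% were lower. Tbcc, a cofactor that acts late in dimer assembly, was at 12.3 ± 0.376 FPKM in Nrp-1+ iTreg, against 10.0 ± 1.13 FPKM in Nrp-1- iTreg (log2 fold change 0.28, adjusted p = 0.0126 by limma, and 0.104 with GC and length correction and the replicate block). Pfdn5, a prefoldin subunit, fell from 429.6 ± 27.4 to 369.9 ± 6.26 FPKM (log2 fold change -0.21, adjusted p = 0.00550 by limma), a call that was lost with quantile normalization (adjusted p = 0.155). Ttc5, which recognises nascent tubulin when free dimers are in excess, was lower at 27.6 ± 0.756 against 30.2 ± 1.25 FPKM (log2 fold change -0.12, adjusted p = 0.0224 by limma), and its partner Scaper was lower at 8.42 ± 0.345 against 9.41 ± 0.364 FPKM (log2 fold change -0.14, adjusted p = 0.0184 by limma, and 0.0922 with GC and length correction and the replicate block). Leaving out Nrp-1- replicate 3 lost both calls (adjusted p = 0.0599 for Ttc5 and 0.0507 for Scaper by limma), and that of Ttc5 was also lost without Nrp-1+ replicate 1 or 2 or Nrp-1- replicate 2 or 4 (0.0557 to 0.0588).

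Among proteins that bind microtubule plus ends or the lattice, 6 of 13 tested genes were higher and 0 lower, with a median log2 fold change of 0.06. The largest were Map7, a kinesin recruiter, at 0.27, and the plus-end protein Mapre1 and the lattice protein Map4, at 0.26 each. Of 4 severing enzymes tested, Fignl1 rose from 12.6 ± 0.543 to 25.9 ± 0.804 FPKM (log2 fold change 0.98, adjusted p = 4.39e-07 by limma). Fignl1 is better known for its part in homologous recombination. Katna1, a catalytic subunit of katanin, was lower, with a log2 fold change of -0.14 (adjusted p = 0.0122 by limma), a call that was lost with GC and length correction (0.0866, and 0.186 with the replicate block). Of 10 tubulin modifying enzymes tested, 6 were higher, 1 was lower and 3 were not called. Ttl lost its call with the replicate block (adjusted p = 0.0800 by limma) and quantile normalization (0.0779). Leaving out replicate 2 or 3 of either subset lost it too (0.0507 to 0.0608). GC and length correction lost Ttl (0.0655, and 0.163 with the block) and Agbl5 (0.0565 and 0.0942), and Ttll1 with the block (0.0575). Agbl5 was also lost without Nrp-1+ replicate 4 (0.0502). Ttll12 was gained without Nrp-1+ replicate 1 (0.00774). The deacetylase Hdac6 was at 7.45 ± 0.284 FPKM in Nrp-1+ iTreg, against 5.50 ± 0.274 FPKM in Nrp-1- iTreg (log2 fold change 0.38), and the other tubulin deacetylase, Sirt2, fell from 57.5 ± 0.767 to 48.8 ± 1.46 FPKM (log2 fold change -0.23). The adjusted p-values were 0.000213 and 0.000186 by limma.

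**Figure D4:**
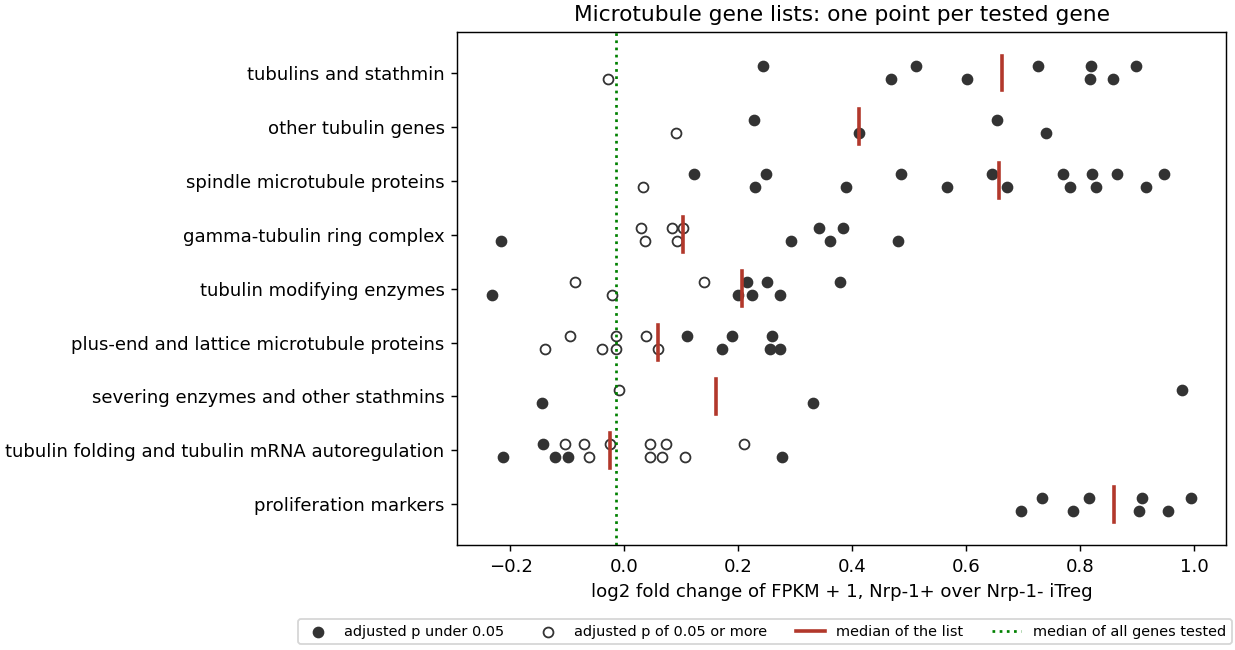
Log2 fold change of FPKM + 1, Nrp-1+ over Nrp-1- iTreg (x axis), for each tested gene of the tubulin and stathmin genes and of 8 related lists (y axis), with filled points for adjusted p under 0.05 by limma, red bars for list medians and a dotted line for the median of all genes tested. The tubulin and stathmin genes, the spindle proteins (median 0.66 each) and the proliferation markers (median 0.86) lie to the right, and the folding genes (median -0.03) lie around 0.

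Proliferation markers moved in the same direction as the tubulin and stathmin genes. All 8 markers of this list, which was chosen with earlier results of these data known, were higher, against 20.9% of all genes tested. Their log2 fold changes went from 0.70 for the replication clamp Pcna to 1.00 for the topoisomerase Top2a (median 0.86). Top2a was at 346 ± 9.71 FPKM in Nrp-1+ iTreg, against 173 ± 3.08 FPKM in Nrp-1- iTreg. Mki67 (0.82), Ccna2 (0.95), Ccnb1 (0.91), Ccnb2 (0.79), Cdk1 (0.90) and Mcm2 (0.73) lay between these values. The part of cell division in the difference of the tubulin genes was not tested.

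Over all 10467 genes tested, the profiles nearest to those of the 3 genes chosen for this search were sought by the root mean square difference of centred log2(FPKM + 1) over the 8 libraries. The nearest to Stmn1 were Ncapg, a condensin subunit, Tyms, thymidylate synthase, and Ccnb1, cyclin B1, which differed by 0.027, 0.038 and 0.038. The nearest to Tuba1b were the transcriptional repressor E2f8 (0.0197), separase Espl1 (0.0257) and Fam64a (0.0274). Those nearest to Tubb5 were the helicase subunit Mcm2 (0.0202), the integrin chain Itgb1 (0.0359) and Cmc2 (0.0363). Since the 8 libraries form 2 groups, these distances are set mostly by the difference between the groups.

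Markers of other cell types were low in both subsets. Summed FPKM of B cell markers was at most 0.867 and of NK cell markers at most 0.142 in any library, with Ms4a1 at 0 in all libraries. Itgam, the single myeloid marker tested, was higher in Nrp-1+ iTreg (6.70 ± 0.252 against 5.56 ± 0.154 FPKM, adjusted p = 0.00136 by limma), while Csf1r was at 0 there and Lyz2 under 0.2 FPKM on average in both subsets. The summed myeloid markers lay between 6.44 and 7.17 FPKM in the Nrp-1+ libraries and between 5.38 and 6.14 FPKM in the Nrp-1- libraries. The summed CD8 T cell markers lay between 7.10 and 8.78 FPKM for Nrp-1+ and between 9.33 and 11.3 FPKM for Nrp-1- iTreg, nearly all of it Cd8b1 (adjusted p = 0.0119 by limma, but 0.0763 with GC and length correction and 0.127 with the replicate block added), with Cd8a near 0. The summed erythroid markers lay between 5.48 and 7.53 FPKM for Nrp-1+ and between 2.01 and 3.25 FPKM for Nrp-1- iTreg, nearly all of it Hba-a1 (adjusted p = 0.000510 by limma), with Hbb-bs at 0 in Nrp-1+ iTreg. The part of such cells in the tubulin differences was not tested.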

How the data were processed

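RNA-seq libraries were grouped by the sample labels, 4 of each iTreg subset. The authors used the CLC Genomics Workbench for the reads and Cufflinks for FPKM, and the deposited table holds 1 FPKM for each symbol in each library. The submitters' processing notes name GRCm38 and mm10, and the annotation, aligner settings and handling of multiply mapped fragments are not given in the sources used here. The labels name a SMARTER kit and the study's methods a directional polyA kit. The labels and the methods give the IL-2 dose in different units, which were not converted. FPKM is relative within a library, and short RNA genes (782 symbols) held between 1.81% and 43.9% of summed FPKM.

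The deposited FPKM were not rescaled. The 10467 of 23361 genes whose mean reached 1 FPKM were fitted on log2(FPKM + 1), pseudocount 1, with limma 3.58.1 in R 4.3.3 (lmFit, eBayes with an intensity trend), and p-values were adjusted by Benjamini-Hochberg over all of them with a threshold of 0.05. The fit was tested on simulated data. Gene lists are given by counts and medians, without set tests. The 10 genes and the lists were chosen with earlier results of these data known. Genes were named by rule: all 10 genes, all other tubulin genes and all proliferation markers. In each other list, up to 3 genes called with the largest rise and 3 with the largest fall were named. So were the 3 nearest profiles of Stmn1, Tuba1b and Tubb5, and some of the genes sharing 50-base stretches with a member. The sorting marker Nrp1 and genes of the cell type marker lists are named as checks of the labels. Genes of the lists named outside the rule were chosen after their values were seen. These were Numa1, Haus2, Haus7, Clip1, Clip2, Mzt2, Tubgcp3 to Tubgcp6, Stmn2, Stmn3, Stmn4, Ttl, Agbl5, Ttll1 and Ttll12. Among the cell type markers they were Cd3e, Cd4, Ms4a1, Csf1r, Lyz2, Cd8a and Hbb-bs. Pfdn6, Svbp and Hbb-bs were matched through older symbols.

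GENCODE M21 gave loci, shared stretches of the longest transcripts, and lengths and GC content (99.4% of the tested genes), and RefSeq gave promoters. Libraries with the same replicate number did not deviate together (correlations from -0.54 to 0.01), so the main fit has no block. Alternatives were pseudocounts of 0.1 and 0.5, no filter, a filter at a mean of 5 FPKM, median-of-ratios factors, quantile normalization, the replicate block, no trend, array weights, removal of short RNA genes, GC and length correction by splines with and without the block, and leaving out each library. Python 3.11.15 with pandas 2.3.3 and matplotlib 3.10.9 served for summaries and plots. Other libraries of the study were not analysed here. Single values of some listed genes are not reported here.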

Additional observations from a re-analysis of the deposited data

Results flagged for a closer look

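In 4 of 90 groups of 4 libraries examined (44 named genes and the relative depth, in each subset), 1 library stood far from the other 3 by Dixon's criterion. Chance flags about 1 in 20 groups, or 4.5 of 90. Tuba1a in Nrp-1- iTreg was at 75.5 FPKM in replicate 2, against 71.2 to 71.9 FPKM in the others, and without that library its log2 fold change was 0.49 in place of 0.47. Cdk1 in Nrp-1- iTreg was at 28.0 FPKM in replicate 2, against 26.5 to 26.7 FPKM. Hdac6 in Nrp-1+ iTreg was at 7.03 FPKM in replicate 4, against 7.55 to 7.65 FPKM. The relative depth of Nrp-1+ iTreg was 1.22 in replicate 3, against 0.994 to 1.00 in the others.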

How the results depend on the processing

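For the 9 genes called higher, all 179 alternative fits kept the direction and the call, with a highest adjusted p of 0.0197 by limma. The count of genes called higher was 9 under every alternative except the filter at a mean of 5 FPKM, where Tubb6 was not tested and it was 8. Tubb2a was not called under any alternative (adjusted p from 0.282 to 0.983 by limma), and its log2 fold change, between -0.10 and 0.01, turned to 0.0133 without Nrp-1+ replicate 2 and to 0.0131 without Nrp-1- replicate 3. The replicate block kept all 9 calls and left 1931 genes higher and 1675 lower over all genes. With the block, 1 plus-end and lattice gene became lower (Clip1), and 2 did so with quantile normalization (Clip1 and Clip2), and the gamma-tubulin ring list had 7 higher with the block in place of 5 (Tubgcp4 and Mzt2 gained). No Nrp-1+ library correlated best with the Nrp-1- library of its own number. With GC and length correction and the replicate block together, 1344 genes were higher and 1059 lower. The folding list then had 0 higher and 2 lower, the gamma-tubulin ring list 0 lower and the modifying enzymes 3 higher of 10 tested. The filter at a mean of 5 FPKM also left 3 modifying enzymes higher, but of 6 tested. The severing list had 0 lower with GC and length correction, with and without the block. The ring list had 0 lower without a filter, and the folding list 2 higher with array weights. Leaving out 1 library gave 1 to 2 higher and 2 to 4 lower in the folding list and 0 to 1 lower in the ring list. The causes of these changes were not tested. Depth limits the low genes most, and the Tuba1 and Tubb2 isotypes share sequence, so their separate values are less certain than their sums.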

Other observations

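Several tubulin and stathmin genes known from other tissues were at or near 0. Among alpha-tubulin genes, Tuba3a was at 0.276 ± 0.180 FPKM in Nrp-1+ iTreg, against 0.189 ± 0.136 FPKM in Nrp-1- iTreg, and Tuba8 and Tubal3 were under 0.1 FPKM on average in both subsets. Tubb1, the beta-tubulin of platelets, was listed at 0 in all 8 libraries. Of the neuronal stathmins, Stmn2 was at 0.0332 and 0.0149 FPKM and Stmn3 at 0.0604 and 0.0458 FPKM in Nrp-1+ and Nrp-1- iTreg, and Stmn4 was listed at 0 in all 8 libraries. Tuba3b was listed at 0 in all libraries but 1.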
